A study of Mus musculus with 8 samples.

Results

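The genes described here encode enzymes that make serine and carry its one-carbon unit on folate. They were chosen by name as Phgdh, Psat1, Psph, Shmt1, Shmt2, Mthfd1, Mthfd2 and Aldh1l1, and 6 of these 8 are among the 11784 genes of the liver RNA-Seq table. Phgdh and Mthfd2 are not listed there, under these symbols or under older ones, and were not analysed here. The livers came from male C57BL/6J mice that were switched at 9 weeks of age to 1 of 2 amino acid-defined diets. The Control diet is TD.140711 and the Low AA diet is TD.140712, with 4 mice on each. In the Low AA diet amino acids supply a smaller share of calories and carbohydrate a larger one, with nearly the same share from fat. All mice stayed on the diet for about 4 months and were fasted overnight for about 16 hours before the liver was collected, so the values describe the fasted liver only. The Low AA mice are H1126, H828, H817 and H1315, and the Control mice are F129, F2212, F7111 and F2110. The study asked how the liver transcriptome differs between the diets.

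Hepatocytes make serine from the glycolytic intermediate 3-phosphoglycerate. Phgdh oxidizes it, Psat1 transfers an amino group onto the product from glutamate, and Psph removes the phosphate. The serine hydroxymethyltransferases, Shmt1 in the cytosol and Shmt2 in mitochondria, then split serine into glycine and a one-carbon unit bound to tetrahydrofolate. Mthfd1 in the cytosol and Mthfd2 in mitochondria interconvert the oxidation states of that unit, and Aldh1l1 oxidizes formyl-tetrahydrofolate to carbon dioxide and free tetrahydrofolate. The liver is a main site of folate metabolism, and in rodents its serine synthesis enzymes are known to respond to dietary protein.

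None of the 6 listed genes passed the test between the diets. Psat1 had the largest difference in size, with a higher mean on the Low AA diet, and Psph and Shmt2 had lower means. Shmt1, Mthfd1 and Aldh1l1 differed by less than the spread between mice. Each value is a read count per gene that had been scaled between mice and rounded before deposit. Differences are on the scale of log2(value + 1), Low AA minus Control, and were tested with limma across all 11784 genes with Benjamini-Hochberg adjustment, and a gene is called at an adjusted p under 0.05. This rule called 0 of the 6 genes and 0.399% of all genes (47 of 11784). At an unadjusted p under 0.05 there were 2 of the 6, Psat1 and Shmt2, against 11.8% of all genes. The values of the diets did not overlap for 1 of the 6, Psph, against 6.81% of all genes. The median difference over the 6 was 0.06, and over all genes it was 0.0023. RNA came from whole liver, where fewer cells of a type and less RNA per cell cannot be told apart.

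**Figure D1:**
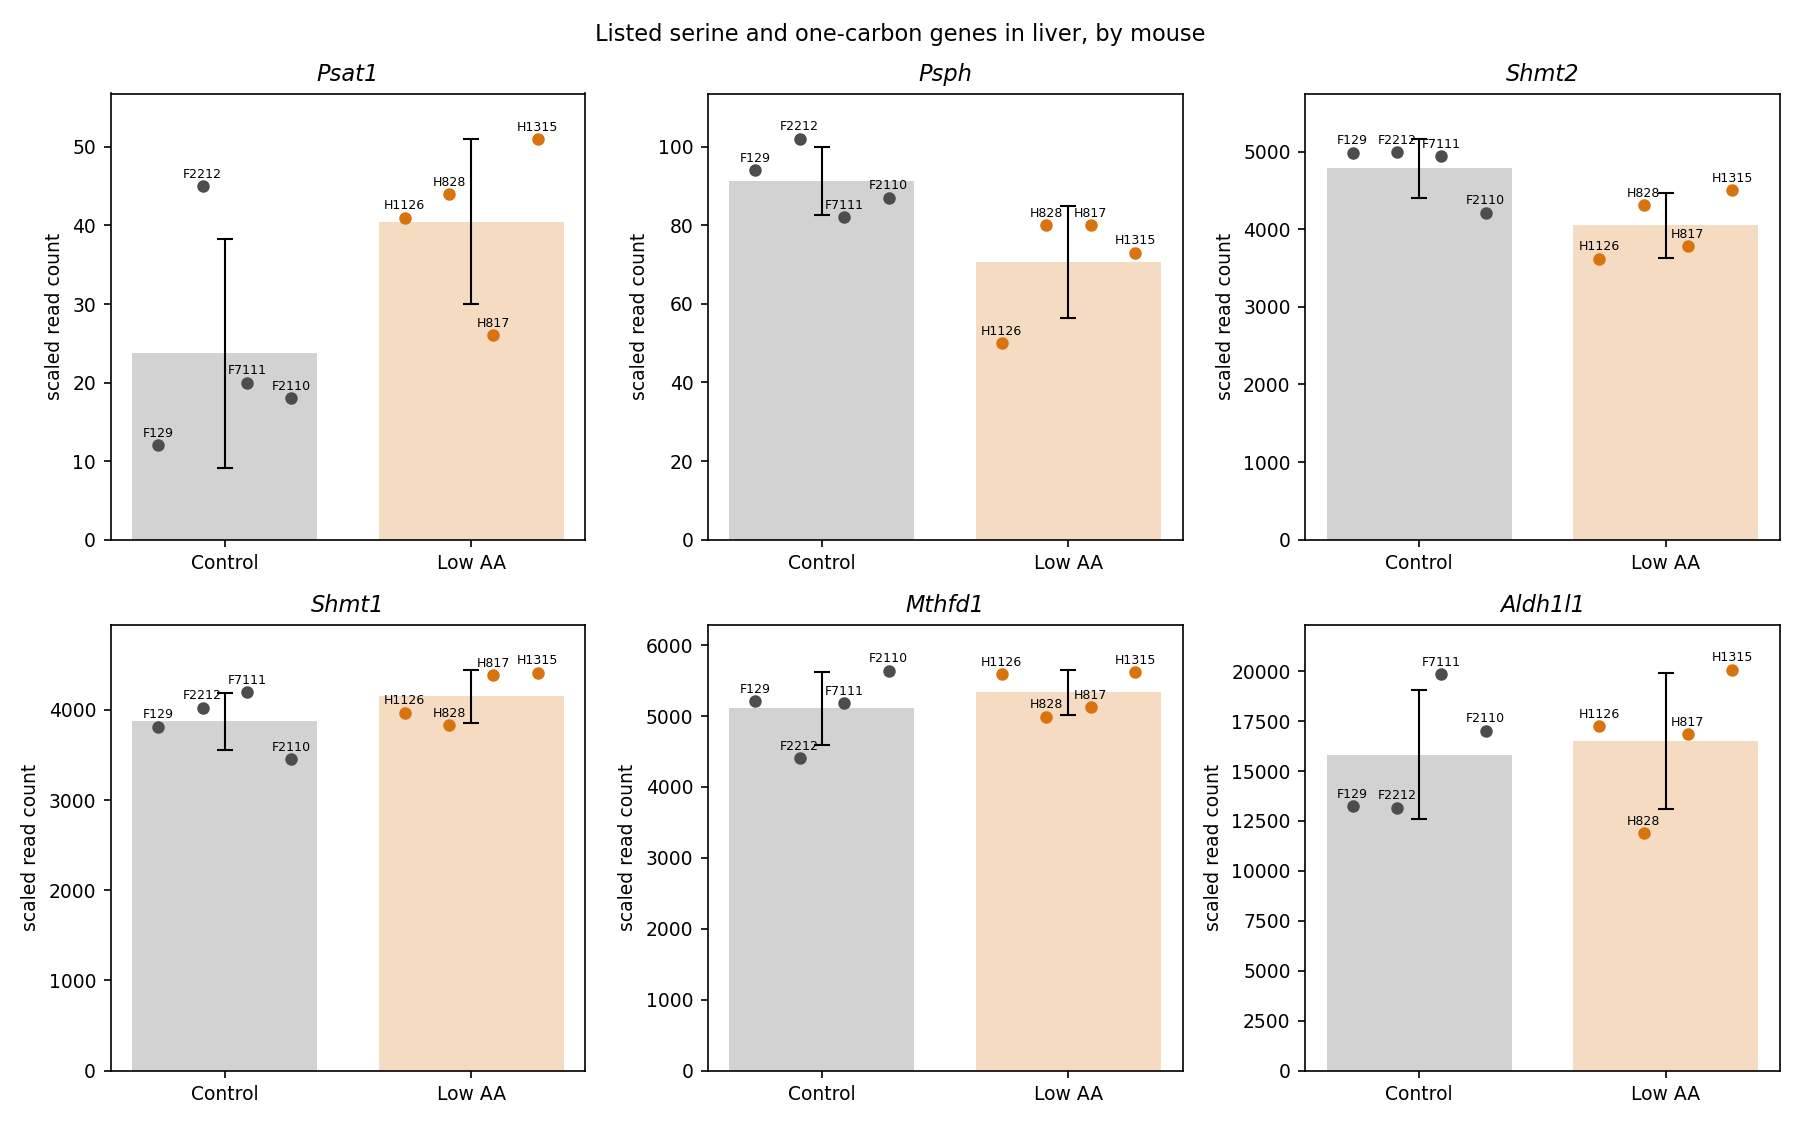
Scaled read counts of the 6 listed genes in each liver, with 1 panel per gene. Dots are mice, bars are diet means and lines are the SD over 4 mice. Control mouse F2212, at 45 for Psat1, lies among the Low AA mice, and Psph is the one gene whose diets do not overlap.

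The scaled read counts summed to between 27876664 and 30799385 per mouse, and their median over genes lay between 433.0 and 449.0, so they are after scaling and do not give the depth. Every gene in the table reached 28 or more in at least 3 mice. The 7 hepatocyte markers, all listed, summed to 2071003 or more in every liver. Control mouse F2212 stood apart. It had 36587 scaled read counts of Cela1, a pancreatic protease, against 130 to 288 in the other mice, and 1129 of Nupr1, a stress-induced chromatin protein, against 16 to 33. Values without this mouse are given beside the results where leaving it out turned the sign, changed a call or moved a difference by over 1.5 times.

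Of the serine synthesis genes, Psat1, which encodes phosphoserine aminotransferase, lies on chromosome 19 from 15904678 to 15947337 (GRCm38, minus strand). Its scaled read counts were 41 in H1126, 44 in H828, 26 in H817 and 51 in H1315. In the Control livers they were 12 in F129, 45 in F2212, 20 in F7111 and 18 in F2110. All 4 Low AA mice were above 3 of the Control mice, and F2212 was above 3 of the Low AA mice. The mean was 40.5 ± 10.5 in Low AA livers and 23.8 ± 14.6 in Control livers (SD, n = 4 each). The log2 difference was 0.87 (standard error 0.38, 95% interval 0.03 to 1.71), with a limma adjusted p of 0.409. An exact permutation test over the 8 mice gave p = 0.114 (two-sided, where 0.0286 is the smallest that 4 against 4 allows). Without F2212 the log2 difference was 1.22 and the limma adjusted p was 0.116, and with another mouse left out that p reached 0.625. Nupr1 and Cela1 were high in the same mouse, and their part in its Psat1 value was not tested.

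Psat1 is close to the lower limit of the table. The mice in which it reached 28 were Low AA mice H1126, H828 and H1315 and Control mouse F2212. If the scaled values are read as counts, counting error alone is about 28.9% at the lowest value of 12 and 14.0% at the highest of 51. The coefficient of variation between Control mice was 61.3%, and between Low AA mice 26.0%.

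Psph encodes phosphoserine phosphatase, the last enzyme of the route, and lies on chromosome 5 from 129765558 to 129787449 (minus strand). In the Low AA mice it had 50 scaled read counts in H1126, 80 in H828, 80 in H817 and 73 in H1315. They were 94 in F129, 102 in F2212, 82 in F7111 and 87 in F2110. The diets did not overlap, but the gap between them, from 80 to 82, is smaller than the counting error of about 9.9% at the highest value. Means were 70.8 ± 14.2 in Low AA livers and 91.3 ± 8.69 in Control livers (SD, n = 4 each). The log2 difference was -0.38 (standard error 0.18, 95% interval -0.79 to 0.03), with a limma adjusted p of 0.462. The exact permutation test gave p = 0.0286 (two-sided, n = 4 each), the smallest possible. H1126 held the lowest value, and without it the log2 difference was -0.23. Psat1 and Psph, adjacent steps of one route, thus had differences of opposite sign, neither of which passed the test.

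Of the serine hydroxymethyltransferases, Shmt2, the mitochondrial enzyme, is encoded on chromosome 10 from 127517123 to 127522444 (minus strand). Its scaled read counts were 3621 in H1126, 4308 in H828, 3781 in H817 and 4500 in H1315. The Control livers had 4988 in F129, 4994 in F2212, 4945 in F7111 and 4216 in F2110. Of the Control mice, 3 lay close together and above all Low AA mice, and F2110 lay below 2 of the Low AA mice. Means were 4053 ± 419 in Low AA livers and 4786 ± 380 in Control livers (SD, n = 4 each), a log2 difference of -0.24 (standard error 0.11, 95% interval -0.48 to -0.01, limma adjusted p = 0.409). An exact permutation test gave p = 0.0857 (two-sided, n = 4 each).

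Shmt1, the cytosolic enzyme, is encoded on chromosome 11 from 60788104 to 60811718 (minus strand). Its scaled read counts ran from 3832 in H828 to 4413 in H1315 on the Low AA diet, with 3970 in H1126 and 4389 in H817. On the Control diet they were 3815 in F129, 4026 in F2212, 4196 in F7111 and 3453 in F2110. The diets overlapped, with the highest value in a Low AA mouse and the lowest in a Control mouse. The log2 difference was 0.10 (standard error 0.10, 95% interval -0.12 to 0.32), with a limma adjusted p of 0.761, and without F2110, the lowest mouse, it was 0.05.

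Dividing the scaled read count of Shmt2 by that of Shmt1 in the same mouse gave 0.912 in H1126, 1.12 in H828, 0.861 in H817 and 1.02 in H1315. The ratio was 1.31 in F129, 1.24 in F2212, 1.18 in F7111 and 1.22 in F2110. These counts are not divided by transcript length, which is 2858 bases for Shmt1 and 2289 for Shmt2. A ratio below 1 therefore does not mean more Shmt1 than Shmt2 per length. Every Control mouse had a higher ratio than every Low AA mouse. For single genes the diets did not overlap in 6.81% of all genes, and the share over pairs of genes was not examined. The means were 0.979 ± 0.117 in Low AA livers and 1.24 ± 0.0537 in Control livers (SD, n = 4 each). On the log2 scale the ratio was lower by 0.34 on the Low AA diet, and it was lower by 0.28 to 0.41 with each mouse left out in turn. The ratio was formed from genes chosen with these data known, so it is given as a description with no test. A ratio within a mouse shows unequal differences of the pair and does not say which of them moved.

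**Figure D2:**
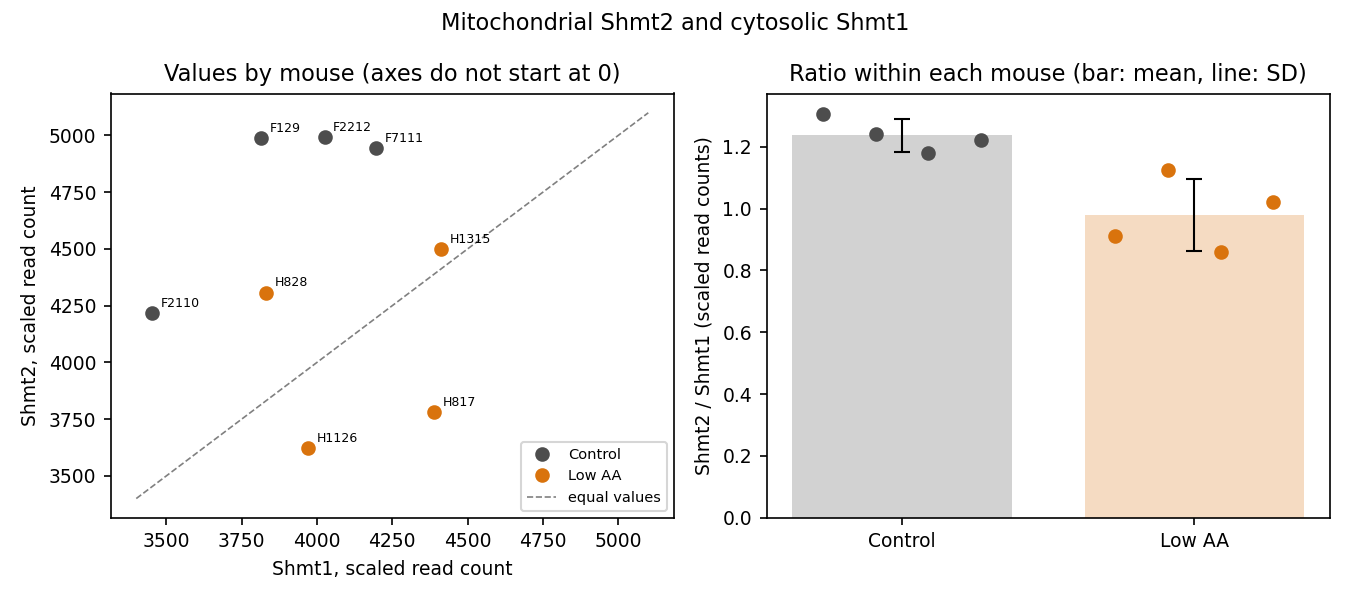
Left, scaled read counts of Shmt1 (x axis) and Shmt2 (y axis) in each mouse, with a dashed line of equal values. Counts are not divided by transcript length. Right, the Shmt2 to Shmt1 ratio by diet, with dots for mice, bars for means and lines for the SD over 4 mice. The Control mice lie between 1.18 and 1.31 and the Low AA mice between 0.861 and 1.12.

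Of the enzymes that convert the folate-bound unit, Mthfd1 carries synthetase, cyclohydrolase and dehydrogenase activities in the cytosol and is encoded on chromosome 12 from 76255298 to 76319803 (plus strand). Low AA mice had 5592 scaled read counts in H1126, 4993 in H828, 5125 in H817 and 5618 in H1315. They were 5213 in F129, 4406 in F2212, 5182 in F7111 and 5640 in F2110. The highest and the lowest value were both in Control mice. The log2 difference was 0.07 (standard error 0.10, 95% interval -0.16 to 0.29, limma adjusted p = 0.864), and without F2212 it was -0.004. The interval spans ratios of Low AA to Control from 0.895 to 1.22. Mthfd1 varied little between mice, with a coefficient of variation of 6.0% in Low AA livers and 10.1% in Control livers. The medians over all genes were 11.9% and 15.9%. This was not particular to Mthfd1, since Shmt1 was at 7.09% and 8.27% and Shmt2 at 10.3% and 7.95%.

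Aldh1l1 is encoded on chromosome 6 from 90486427 to 90600203 (plus strand). The scaled read counts of Aldh1l1 were 17248 in H1126, 11878 in H828, 16841 in H817 and 20070 in H1315. The Control livers had 13258 in F129, 13171 in F2212, 19862 in F7111 and 17025 in F2110. Both diets covered nearly the same range. The log2 difference was 0.06 (standard error 0.18, 95% interval -0.35 to 0.47, limma adjusted p = 0.94), so a ratio anywhere from 0.785 to 1.38 lies within the interval. Its coefficient of variation was 20.6% in Low AA livers and 20.4% in Control livers, above the medians over all genes. The sign of the difference turned when F129, F2212 or H1315 was left out, at -0.02, -0.024 and -0.045.

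**Figure D3:**
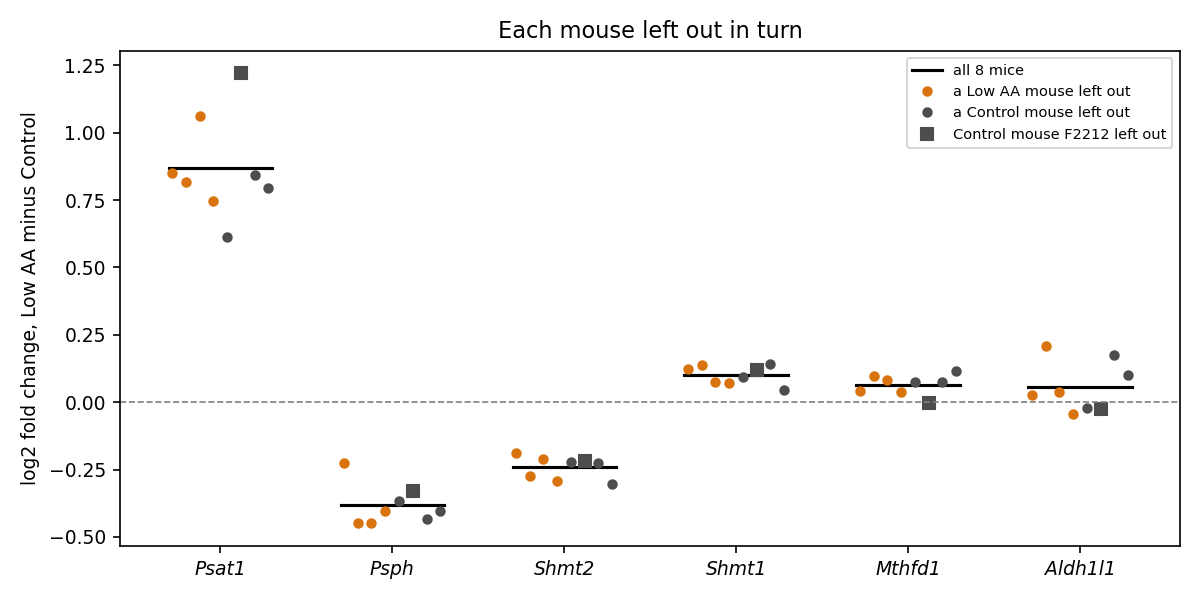
Log2 difference, Low AA minus Control, of each listed gene with all 8 mice (black bars) and with 1 mouse left out (dots, colored by the diet of that mouse, with squares for F2212). Psat1 moves from 0.61 to 1.22, Psph and Shmt2 stay below 0 and Shmt1 above it, and Mthfd1 and Aldh1l1 fall on both sides of 0.

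Levels of different genes were compared as scaled read count per kilobase of the longest protein-coding transcript (GENCODE M21 on GRCm38). On the Control diet Aldh1l1 was highest, at 3791 ± 775 per kilobase, followed by Shmt2 at 2091 ± 166, Mthfd1 at 1577 ± 159 and Shmt1 at 1355 ± 112 (SD, n = 4 each). Psph, at 52.7 ± 5.02, and Psat1, at 9.08 ± 5.57, were far lower (SD, n = 4 each). Shmt1 per kilobase was on average 25.9 times Psph in the Control livers. The order of the means was the same on the Low AA diet. Neighbors in this order did not overlap between mice of one diet, except Mthfd1 and Shmt1 on both diets and Shmt2 and Mthfd1 on the Low AA diet. Liver RNA held much more of the folate enzymes than of the listed serine synthesis enzymes on both diets.

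**Figure D4:**
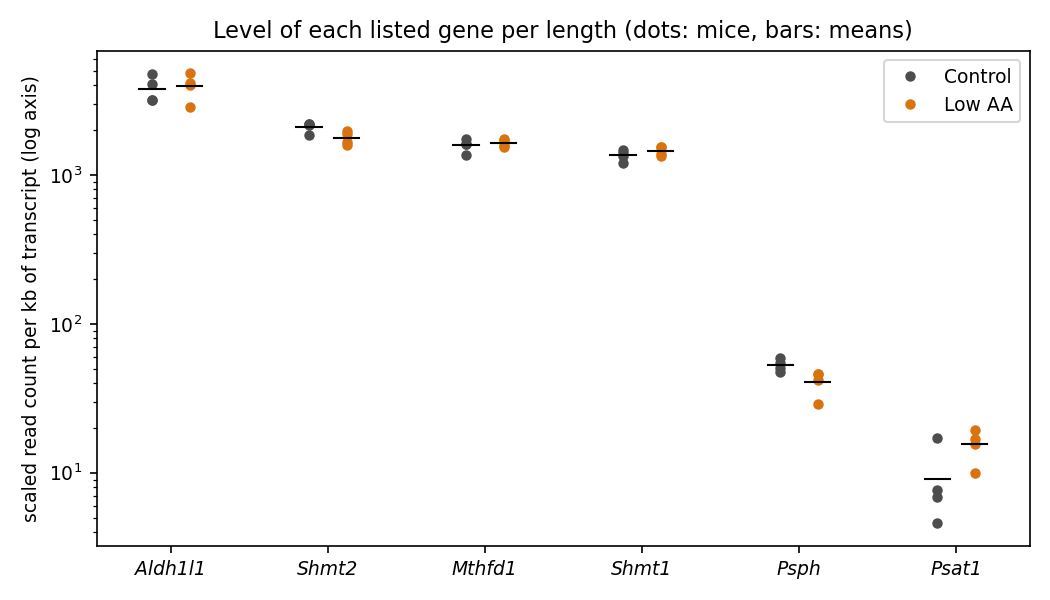
Scaled read count per kilobase of transcript (log axis) for the 6 listed genes, with dots for mice and bars for diet means. The folate enzymes lie between 1208 and 4807 per kilobase in all 8 mice, and Psph and Psat1 lie between 4.59 and 58.9.

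The other genes of the route were taken from 7 lists written from general knowledge, 50 genes in all, of which 46 are in the table. Of these 46, 1 was called, with a lower value in the Low AA livers, against 0.399% of all genes. Those with an unadjusted p under 0.05 were 8, of which 4 were higher and 4 lower, where the share over all genes was 11.8%. Their median log2 difference was -0.06.

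**Figure D5:**
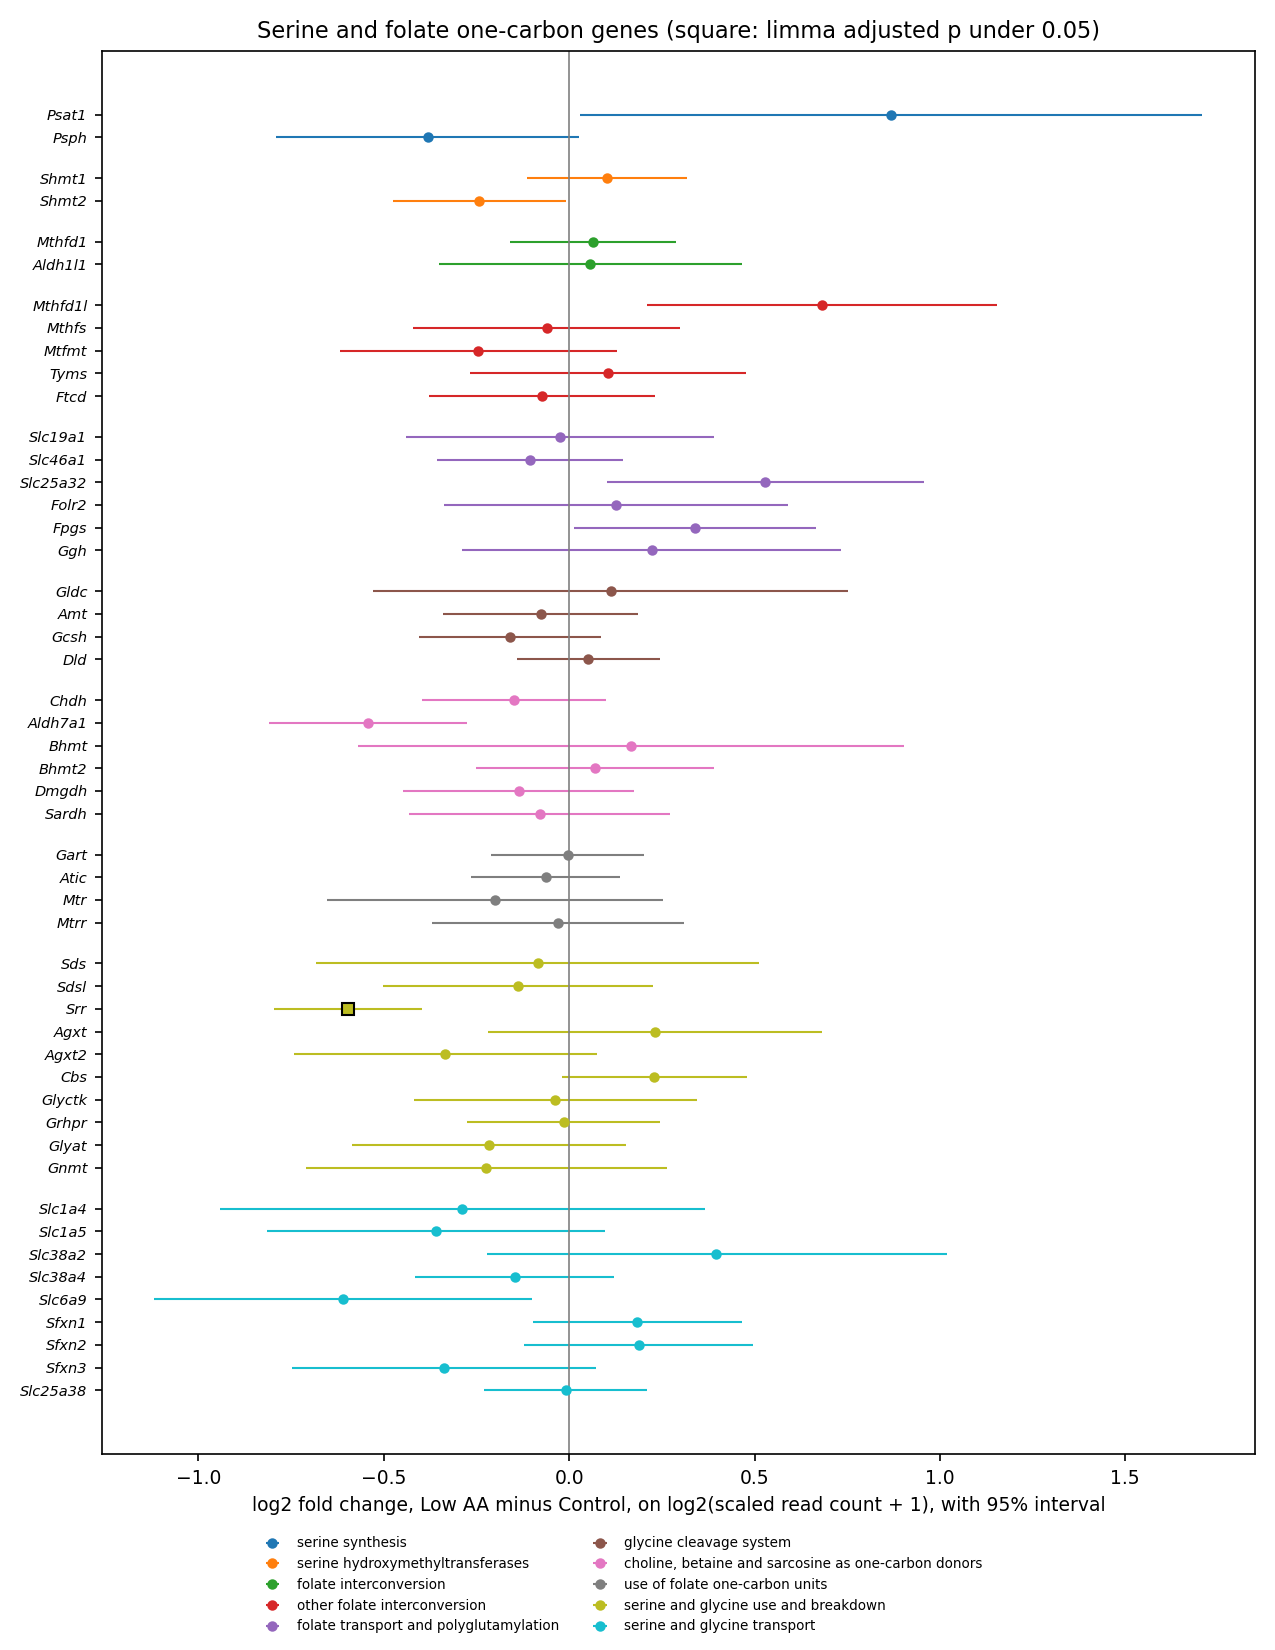
Log2 difference, Low AA minus Control (x axis), with its 95% interval for the 6 listed genes and 44 further genes of the route, colored by list. The square marks Srr, the one gene called, at -0.60.

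The gene called was Srr, which encodes serine racemase, the enzyme that turns L-serine into D-serine and can also break serine down to pyruvate. Its scaled read counts were 1862 in H1126, 2041 in H828, 1978 in H817 and 2023 in H1315, against 2744 in F129, 3050 in F2212, 3280 in F7111 and 2897 in F2110. The diets did not overlap for this 1 of the 10 genes of serine and glycine use and breakdown, against 6.81% of all genes. The log2 difference was -0.60 (standard error 0.09, limma adjusted p = 0.0253). The genes and lists were chosen with earlier results of these mice known, so neither Srr nor Asns is independent evidence. The call of Srr was lost with no trend of variance on mean (limma adjusted p = 0.0569). It was also lost with any of the Low AA mice or with F2110 left out, with a largest limma adjusted p of 0.1 without H817. With each of the 8 mice left out in turn the log2 difference stayed between -0.64 and -0.55. Among the other 9 genes of serine and glycine use and breakdown 0 were called, against 0.399% of all genes. Cbs, which joins serine to homocysteine, had a log2 difference of 0.23 (limma adjusted p = 0.471).

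Of the 7 further folate-converting genes in the table, 0 were called, against 0.399% of all genes. At an unadjusted p under 0.05 there were 2 higher and 1 lower, where the share over all genes was 11.8%. Mthfd1l, the mitochondrial enzyme that releases formate, was at 41 to 61 scaled read counts in Low AA livers and at 25 to 36 in Control livers. The diets did not overlap for this 1 of the 7 genes, against 6.81% of all genes. The log2 difference of Mthfd1l was 0.68 (standard error 0.21, limma adjusted p = 0.223).

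Of the 6 listed genes of folate transport and polyglutamylation, 0 were called, against 0.399% of all genes. At an unadjusted p under 0.05 there were 2 higher and 0 lower, where the share over all genes was 11.8%. Slc25a32, the carrier linked to folate entry into mitochondria, was at 821 to 1321 scaled read counts in Low AA livers and at 499 to 868 in Control livers, a log2 difference of 0.53 (limma adjusted p = 0.302). Fpgs, which adds glutamates to folate and so keeps it in the cell, had a log2 difference of 0.34 (limma adjusted p = 0.408).

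The glycine cleavage system, which takes a one-carbon unit from glycine in mitochondria, had 0 of 4 genes called, against 0.399% of all genes. Gcsh and Amt had log2 differences of -0.16 and -0.08 (limma adjusted p = 0.644 and 0.862), and Gcsh was at -0.095 without F2212. Of the 6 genes that feed one-carbon units from choline, betaine and sarcosine, 0 were called, against the same share of all genes. Aldh7a1, an aldehyde dehydrogenase that makes betaine and also acts in lysine breakdown, was at 6631 to 8539 scaled read counts in Low AA livers and at 9343 to 12695 in Control livers. Aldh7a1 was the 1 of these 6 genes without overlap between diets, against 6.81% of all genes. Its log2 difference of -0.54 (standard error 0.12) had a limma adjusted p of 0.0977. Chdh, choline dehydrogenase, had a log2 difference of -0.15 (limma adjusted p = 0.678).

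The 4 genes that spend folate-bound units on purines and methionine had 0 called, against 0.399% of all genes. Their log2 differences were between -0.20 and -0.004. Mtr, methionine synthase, was at -0.20 and Atic, of purine synthesis, at -0.06 (limma adjusted p = 0.777 and 0.845). Without F2212 Mtr was at -0.33, and without F7111 at -0.04. Of the 9 listed carriers of serine and glycine 0 were called, against the same share of all genes. Slc6a9, a glycine transporter, was at 351 to 483 scaled read counts in Low AA livers and at 460 to 956 in Control livers, a log2 difference of -0.61 (limma adjusted p = 0.322), and of -0.40 without F7111. Sfxn3, a mitochondrial carrier of the sideroflexin family, had a log2 difference of -0.34 (limma adjusted p = 0.527).

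Phgdh, Psat1, Psph, Shmt2 and Mthfd2 are known targets of ATF4, the transcription factor of the amino acid response. Of 22 further genes of that response 19 are in the table and 0 were called, against 0.399% of all genes. Their median log2 difference was -0.02. Of the 19, 9 had a positive difference. At an unadjusted p under 0.05 there were 3 higher and 1 lower, where the share over all genes was 11.8%. The lower one was Eif4ebp1, with a log2 difference of -0.32 (limma adjusted p = 0.347). Asns, asparagine synthetase, was at 234 in H1126, 480 in H828, 344 in H817 and 1264 in H1315, against 138 in F129, 355 in F2212, 122 in F7111 and 219 in F2110. H1315 held the highest value of Asns and of Psat1, and F2212 was the highest of the Control mice for both. Over all genes, H1315 was the highest of the 8 mice for 10.1% and F2212 for 20.4%. A link between Asns and Psat1 was not tested. Asns had a log2 difference of 1.30 (limma adjusted p = 0.321), and without H1315 it was 0.83. Atf4 itself had a log2 difference of -0.12 (limma adjusted p = 0.768), and of -0.08 without F2212. Fgf21, a hormone gene of the same response, had a log2 difference of 0.56 (limma adjusted p = 0.591), and without Control mouse F7111, at 412 against 1086 or more in the other mice, it was 0.15. The diets did not overlap for 2 of the 19, Vldlr and Ddit4, against 6.81% of all genes. Vldlr, a lipoprotein receptor, and Ddit4, an inhibitor of mTORC1 signaling, had log2 differences of 1.31 and 0.72 (limma adjusted p = 0.0711 and 0.281). Without F2212 the log2 difference of Ddit4 was 0.44. In the same fit Vldlr was called, at 1.49 (limma adjusted p = 0.0323, where the limma adjusted p reached 0.179 with another mouse left out).

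ATF4 acts through a composite element with the letters TGATGNAAN. The element was searched on both strands in RefSeq promoter windows of GRCm38, 250 bases before to 50 bases after each start site. It was in 0 of the 9 windows of the 8 named genes and in 3.95% of all 32851 windows. The absence of these letters from a window says nothing about ATF4 binding elsewhere. The Asns window holds it 23 bases before the start site, on chr6:7693212-7693244, minus strand. That stretch is shown because Asns is the reference gene of the response, with the element in capitals.
Asns: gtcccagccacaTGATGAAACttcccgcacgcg

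The genes most like the serine synthesis genes over the 8 mice were found by Pearson's r with the mean z score of Psat1 and Psph. They were Dand5 (r = 0.953), Egln2 (r = 0.95), Gatad1 (r = 0.948), Arl6ip4 (r = 0.941) and Prkcq (r = 0.941). The diet difference is part of such an r, and with 11784 genes and 8 mice high values are easily reached. Psat1 and Psph ran apart, with r = -0.376 between them over the 8 mice, so their mean stands for neither. Taken alone, Psat1 was most like Rps6ka1 (r = 0.938), and Psph was most like Sqstm1 (r = 0.97), and neither single list shared a gene with those 5.

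Markers of other cell types were compared as summed scaled read counts. Of 8 pancreatic acinar markers Cela1 alone is in the table. Every gene in the table reached 28 or more in at least 3 mice. A marker high in fewer mice may therefore be unlisted, so an unlisted marker says nothing about a single liver such as F2212. The 4 listed of 5 bile duct markers all had negative log2 differences (median -0.62, 2 at an unadjusted p under 0.05), with sums of 826 to 1316 in Low AA livers and 1124 to 2265 in Control livers. The 3 listed of 4 red blood cell markers also all had negative differences (median -0.49, 2 at an unadjusted p under 0.05), with sums of 7713 to 12216 and 6414 to 22257. Kupffer cell markers, 6 of 6 listed, all had positive differences (median 0.24, 1 at an unadjusted p under 0.05) and summed to 6580 to 9490 and 6019 to 9429. Endothelial markers, 6 of 6 listed, summed to 5946 to 6600 and 4858 to 6945, and stellate markers, 6 of 6 listed, to 7716 to 9666 and 7509 to 9777. Of 6 adipocyte markers 2 are listed, with sums of 4547 to 5969 and 2259 to 5970, while Adipoq and Plin1 are not, and of 6 markers of dividing cells 2 are listed, with sums of 50 to 73 and 51 to 74. In limma none of these markers was called, against 0.399% of all genes. Of the stellate markers 1 was lower at an unadjusted p under 0.05. The share of all genes under that unadjusted p, in either direction, was 11.8%. The part of these cells in the values of the serine and folate genes was not tested.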

How the data were processed

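Poly(A) RNA from 8 livers was sequenced from stranded libraries. The authors deposited 1 table with a signal for each gene and mouse, a read count scaled between mice and rounded, and in further columns their own fold change and FDR between the diets, which were left unused. The submitters' processing notes name bcl2fastq 1.8.2, STAR 2.5.0a, RSEM 1.2.6, edgeR 3.10.5, R 3.2.1 and the build mm10. The scaling step itself is not given in the sources used here. It was read from column medians that nearly agree and from regular gaps or doublings among low values, so no count model was run and no sequencing depth or counting interval can be given exactly. Unequal handling of reads shared between similar genes would change single values.

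The log2(value + 1) of each gene was fitted in limma 3.58.1 under R 4.3.3, using diet as the one factor and a trend of variance on mean. A minimum of 1 in at least 4 mice removed 0 genes. The code was tested on simulated data. Mice were grouped by the diet label, and each mouse code occurs once, so there is no pairing. Mice were group housed and cages are not given in the labels. The p-values measure the spread between these mice and treat each mouse as independent. An effect of shared cages could not be told apart from diet. Symbols were also matched through older names, which found 2. Positions and lengths are from GENCODE M21 and promoters from RefSeq, both on GRCm38, the same assembly as mm10. Figures were drawn with matplotlib 3.10.9.

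The genes, lists and tests were chosen with earlier results of these data known. Genes named were the 6 listed, in each list those called and the 2 with the smallest p (fewer in the folate-converting list), Asns, Atf4, Fgf21 and Cela1, and the 5 most alike by r. Of the further genes of the route, 2 count in their list and are not reported singly here. Nupr1, Bhmt, Rps6ka1, Sqstm1 and Eif4ebp1 were named after their values were seen. Alternatives were pseudocounts of 0.1 and 5, the 8000 genes of highest mean, equal column totals, scaling by the median of ratios, no trend, robust moderation and each mouse left out. Those on Psat1 and Psph taken alone and on the Shmt ratio with mice left out were chosen after seeing the data.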

Additional observations from a re-analysis of the deposited data

Results flagged for a closer look

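In 52 groups of 4 mice, 2 for each of the genes named with values for each diet, 1 mouse was looked for that lay far from the other 3 on the log2 scale. In 4 groups the gap to the nearest mouse, divided by the whole range, was above Dixon's critical value at 95%, where chance gives about 1 in 20. Shmt2 was lowest in Control mouse F2110, at 4216 against 4945 to 4994 in the other Control mice (gap over range 0.942). In Control mouse F2212 Ddit4 was lowest (0.951), Cela1 was highest (0.945) and Nupr1 was highest (0.887). Nupr1 was named after its values were seen, and Cela1 with earlier results known. The count of 4 groups can therefore not be set against that rate. Leaving out F2110 moved the log2 difference of Shmt2 from -0.24 to -0.30 (limma adjusted p = 0.344), and leaving out F2212 moved that of Cela1 from -1.46 to 0.50. No explanation was tested for these mice.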

How the results depend on the processing

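No alternative called any of the 6 genes, and Psat1, Psph, Shmt1 and Shmt2 kept their direction in every fit that includes them. Psat1 and Psph are not among the 8000 genes of highest mean. With each mouse left out the log2 difference ran from 0.61 to 1.22 for Psat1, from -0.004 to 0.11 for Mthfd1, from -0.045 to 0.21 for Aldh1l1, from -0.13 to 0.007 for Amt and from -2.21 to 0.50 for Cela1. The count of all genes called, 47 (12 higher and 35 lower), was 19 (5 and 14) among the 8000 genes, 30 (7 and 23) with no trend, and 16 to 77 (4 to 26 higher, 12 to 51 lower) with each mouse left out. It was lowest without Low AA mouse H817 and highest without Control mouse F2212, and it was 29 without F129, 21 without H1126 and 19 without H828. The 1 gene called for serine and glycine use, Srr, fell to 0 with no trend and ran from 0 to 1 with each mouse left out, as did the ATF4 list, where Vldlr was called without F2212. Of the 5 genes most like the serine synthesis genes 1 was shared with the diet means taken off, 1 with Spearman's rho, 0 with Psat1 alone and 0 with Psph alone. The cause of these changes was not tested. Values of 12 to 102 limit the precision for Psat1 and Psph.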

Other observations

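Over the 6 listed genes and the 46 further genes of the route, Low AA mouse H828 was the lowest of the 8 mice for 14 of 52 genes, where it was lowest for 14.0% of all genes in the table, and Low AA mouse H1315 was the highest for 13 of 52, where it was highest for 10.1% of all genes. Aldh1l1 was among the genes lowest in H828 and highest in H1315. Bhmt, the betaine-dependent methyltransferase, had the most scaled read counts of the 52 genes and ran from 121434 to 343951 on the Low AA diet and from 154436 to 309849 on the Control diet. These counts are descriptive, since the genes share mice, and no test was run on them.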
